A study of Mus musculus with 7 samples.

Results

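Matrix metalloproteinases (MMPs) and their tissue inhibitors (TIMPs) were followed as RNA through the 5C-medium reprogramming of mouse fibroblasts. The 9 genes, taken by their symbols, are 6 proteases, *Mmp2*, *Mmp3*, *Mmp9*, *Mmp10*, *Mmp13* and *Mmp14*, and 3 inhibitors, *Timp1*, *Timp2* and *Timp3*. All 9 were found among the 29267 Ensembl genes of the tables, and all 7 libraries were used.

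OG2 fibroblasts from mouse embryos, which carry an *egfp* reporter under the *Oct4* promoter (GOF18ΔPE), received retroviral *Oct4*, *Sox2*, *Klf4* and *c-Myc* on days 0 and 1. From day 2 they were kept in mES medium, which holds serum, LIF and vitamin C, or in serum-free 5C medium, which holds DMEM/F12, N2, bFGF, LIF, β-mercaptoethanol and vitamin C. Sorting by FACS on day 15 split each culture into Oct4GFP+ and Oct4GFP- cells, all at passage 0, named after the medium (mES-Oct4GFP+, for example). 5C-Oct4GFP+ cells were also converted in naïve medium (LIF and 2i) or in primed medium (bFGF and activin A at induction), and these libraries are labelled with 20 passages. Figure legends give 3 days in these media, in one place followed by 20 passages and in another alone. The labels were used here, and the time in culture of these 2 libraries is uncertain to that extent. Cells in primed medium lost the GFP signal, so their name refers to the cells they came from. The last group, R1 ESCs-primed, is an embryonic stem cell line brought to the primed state, also labelled with 20 passages. They were induced on MEF feeder cells, and were neither sorted by the reporter nor infected with the 4 factors. For maintenance of primed cells the paper gives FBS-coated plates, with CHIR99021 and IWR-1 in place of bFGF and activin A. Each group has 1 library, so that the spread between cultures is unknown and no difference below has a test.

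MMPs are zinc-dependent proteases that cut collagens, laminins and other matrix proteins, and they are made as inactive proenzymes. TIMPs bind the active site of MMPs and block it. Fibroblasts use both to remodel their matrix, and MMPs are also known for their part in the epithelial–mesenchymal transition and in the cell movements of the early embryo.

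Values are TPM, RSEM's transcript abundance, scaled for transcript length and to an equal sum in each library. The estimated counts summed to between 6108252 and 11496615 per library. At these depths 1 read on a detected gene was worth a median of 0.0712 to 0.137 TPM. Ratios of TPM carry a 95% interval that covers counting error only. A gene was compared between libraries if either held 1 TPM or more. It was called higher or lower at a difference of at least 2-fold on log2(TPM + 1), a scale that understates differences of low genes. Oct4GFP- cells were not a negative control for *Oct4*, since viral and endogenous reads of *Pou5f1* cannot be told apart. Of the pluripotency markers without a viral copy, *Zfp42* was at 337.06 TPM in Oct4GFP+ and 1.31 TPM in Oct4GFP- cells of mES medium, and at 219.41 and 14.11 TPM in those of 5C medium. It was listed at 0 in 5C-Oct4GFP+ (primed) cells and at 6.02 TPM in R1 ESCs-primed. In all libraries of bulk RNA, fewer cells of a type and less RNA per cell cannot be told apart.

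*Mmp3*, *Mmp10* and *Mmp13* lie near each other on chromosome 9 of GRCm38 (GENCODE M21), on the plus strand. *Mmp3* spans chr9:7445822-7455975, *Mmp10* chr9:7502352-7510240 and *Mmp13* chr9:7272514-7283331. The 150 bases before the RefSeq start of these genes (GRCm38.p6) are shown because they hold a motif that the other promoters did not. Capitals mark TGAGTCA or TGACTCA, both forms of TGANTCA, the motif of AP-1, a dimer of FOS and JUN proteins. *Mmp14*, which lacks the motif, is shown for comparison.

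Mmp13, chr9:7272364-7272513, plus strand: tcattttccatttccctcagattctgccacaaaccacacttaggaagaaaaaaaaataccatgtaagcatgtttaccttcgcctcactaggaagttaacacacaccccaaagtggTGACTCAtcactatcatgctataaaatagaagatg
Mmp3, chr9:7445672-7445821, plus strand: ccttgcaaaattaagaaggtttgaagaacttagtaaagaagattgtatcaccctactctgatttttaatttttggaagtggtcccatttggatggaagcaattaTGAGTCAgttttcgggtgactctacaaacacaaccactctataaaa
Mmp10, chr9:7502192-7502341, plus strand: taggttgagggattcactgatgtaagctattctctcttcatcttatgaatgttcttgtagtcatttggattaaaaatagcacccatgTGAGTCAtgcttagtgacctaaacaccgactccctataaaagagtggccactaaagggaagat
Mmp14, chr14:54431448-54431597, plus strand: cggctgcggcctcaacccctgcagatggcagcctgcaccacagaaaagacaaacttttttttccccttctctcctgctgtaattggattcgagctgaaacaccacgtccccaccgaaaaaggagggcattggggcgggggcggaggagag

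The RefSeq table held a promoter for 7 of the 9 genes, all except *Mmp2* and *Mmp9*. Counting the base before the start as -1, TGANTCA stood at -35 to -29 in *Mmp13*, at -46 to -40 in *Mmp3* and at -63 to -57 in *Mmp10*. On both strands of the 250 bases before the start, it was in 3 of the 7 promoters. Over all RefSeq promoters of this length, 2217 of 32851 (6.75%) held it. The letters TATAAA were in the same 3 promoters, without overlap with TGANTCA, and in 12.4% of all promoters. Their G and C content was 37.2% to 40.4%, against a median of 52.4% over all promoters. The promoters of *Mmp14* (55.2%), *Timp1* (54.4%), *Timp3* (65.6%) and *Timp2* (68.0%) were higher in G and C, and these 4 windows held neither motif. A match of letters is a description and not a binding site.

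*Mmp2* (ENSMUSG00000031740, chr8:92827291-92853420) encodes gelatinase A, which cuts denatured collagen and basement membrane collagen. In mES medium it was at 2.43 TPM in Oct4GFP+ and 111.68 TPM in Oct4GFP- cells, and in 5C medium at 19.14 and 98.29 TPM. Converted cells held 1.00 TPM in naïve and 28.20 TPM in primed medium, and R1 ESCs-primed held 71.89 TPM. *Mmp14* (ENSMUSG00000000957, chr14:54431612-54445364) encodes the membrane-anchored MT1-MMP, which activates pro-MMP2 on the cell surface. *Mmp14* was at 4.40, 128.50, 22.35, 162.53, 2.85, 35.64 and 100.93 TPM in the same order. Both genes were lowest in the naïve and mES-Oct4GFP+ libraries, intermediate in 5C-Oct4GFP+ and primed cells, and highest in the Oct4GFP- libraries and R1 ESCs-primed.

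The *Mmp2* and *Mmp14* profiles were the closest to each other among 13493 genes with at least 5 TPM in any library. Closeness was the root-mean-square difference of log2(TPM + 1) over the 7 libraries, each gene centred on its own mean, and it was 0.26 for this pair. The next closest were *App* (0.372) and *Fkbp10* (0.456) for *Mmp2*, and *Anxa5* (0.335) and *Prag1* (0.426) for *Mmp14*. *Mmp14* RNA was 1.15 to 2.85 times *Mmp2* RNA in every library.

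*Mmp9* (ENSMUSG00000017737, chr2:164940780-164955850), gelatinase B, was low in most libraries. Its level was 1.35, 6.65, 0.11, 1.34, 0.07, 5.98 and 15.22 TPM in the order given for *Mmp2*. These rest on 6, 91, 2, 5, 1, 103 and 164 estimated reads. RSEM placed the reads on different transcripts of the gene, so that the effective length it divided by ran from 876.7 to 3102 bases. The *Mmp9* ratios that change with this are given below also as CPM, reads scaled to the library total with no length.

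*Mmp3* (ENSMUSG00000043613) and *Mmp10* (ENSMUSG00000047562) encode stromelysin 1 and 2, which cut a wide range of matrix proteins and activate other proenzymes. *Mmp3* was listed at 0 in mES-Oct4GFP+, mES-Oct4GFP- and naïve cells. It was at 0.10 TPM in 5C-Oct4GFP+ (1 read), 2.30 in 5C-Oct4GFP-, 32.89 in primed cells and 74.37 in R1 ESCs-primed. *Mmp10* was at 2.90 TPM in primed cells and 6.09 in R1 ESCs-primed, and between 0 and 0.28 TPM in the 5 other libraries. Both were highest in the 2 primed libraries.

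*Mmp3* RNA was 11.3 times (7.82 to 17.1) *Mmp10* RNA in primed cells and 12.2 times (8.70 to 17.2) in R1 ESCs-primed. The transcripts share sequence: of the 50-base windows of *Mmp10*, 140 of 1673 (8.37%) also occur in *Mmp3*. The split of reads between this pair is uncertain to that extent. *Mmp13* (ENSMUSG00000050578), collagenase 3, was at 2.40 TPM in R1 ESCs-primed, 1.26 in 5C-Oct4GFP- and 1.10 in primed cells. In this order neighbours did not differ beyond counting error, while primed cells were below R1 ESCs-primed. Elsewhere it was between 0 and 0.17 TPM.

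The genes with the profile most like that of *Mmp3* were *Mixl1* (0.888), *Apln* (0.894) and *Foxa2* (0.934). These are large distances beside that of *Mmp2* and *Mmp14*. *Mixl1*, a homeobox gene of the primitive streak, was at 16.10 TPM in primed cells and 36.52 TPM in R1 ESCs-primed, and below 1 TPM in the other libraries. For *Mmp9* the closest were *Tmem119* (0.353), *Mum1l1* (0.377) and *Mecom* (0.378). For *Mmp10* they were *Lzts1* (0.258), *Snrpn* (0.259) and *Cand2* (0.281), and for *Mmp13* *Foxred2* (0.192), *Smarce1* (0.214) and *Adgrl1* (0.225), all chosen against profiles of few reads.

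*Timp1* (ENSMUSG00000001131, chrX:20870166-20874735), a secreted inhibitor that blocks MMP14 poorly, had another order. With mES medium it was at 62.79 TPM in Oct4GFP+ and 184.04 TPM in Oct4GFP- cells, and with 5C medium at 98.47 and 197.13 TPM. It was at 75.25 TPM in naïve cells, 32.10 TPM in primed cells and 47.19 TPM in R1 ESCs-primed. It was the only one of the 9 genes whose lowest level was in primed cells. The 2 Oct4GFP- libraries did not differ beyond counting error, nor did naïve and mES-Oct4GFP+ cells. The closest profiles were *Tubb2a* (0.177), *Cldn34c1* (0.18) and *L3hypdh* (0.193).

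*Timp2* (ENSMUSG00000017466, chr11:118301069-118355740, minus strand) encodes the inhibitor that also holds pro-MMP2 to MMP14 for activation. *Timp2* was at 1.61, 49.87, 2.65, 62.11, 0.83, 26.52 and 81.35 TPM in the same order of libraries. It was low in mES-Oct4GFP+, 5C-Oct4GFP+ and naïve cells and higher in the other 4 libraries, and the levels of 5C-Oct4GFP+, mES-Oct4GFP+ and naïve cells did not differ between neighbours beyond counting error. The closest profiles were *Ccl2* (0.265), *Bmp1* (0.365) and *Tnc* (0.368).

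*Timp3* (ENSMUSG00000020044, chr10:86300372-86349506) encodes the inhibitor that stays bound to the matrix and also blocks ADAM proteases. *Timp3* was at 3.35, 122.32, 9.81, 59.69, 1.07, 11.01 and 29.44 TPM in that order. It was highest in mES-Oct4GFP- cells, and primed and 5C-Oct4GFP+ cells did not differ beyond counting error. *Syn3* lies on the opposite strand and shares 1733 of the 8144 exon bases of *Timp3*, and the library kit kept no strand. *Syn3* was between 0.64 and 2.52 TPM. The closest profiles to *Timp3* were *Ltbp3* (0.247), *Tcim* (0.262) and *Rnase4* (0.351).

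**Figure D1:**
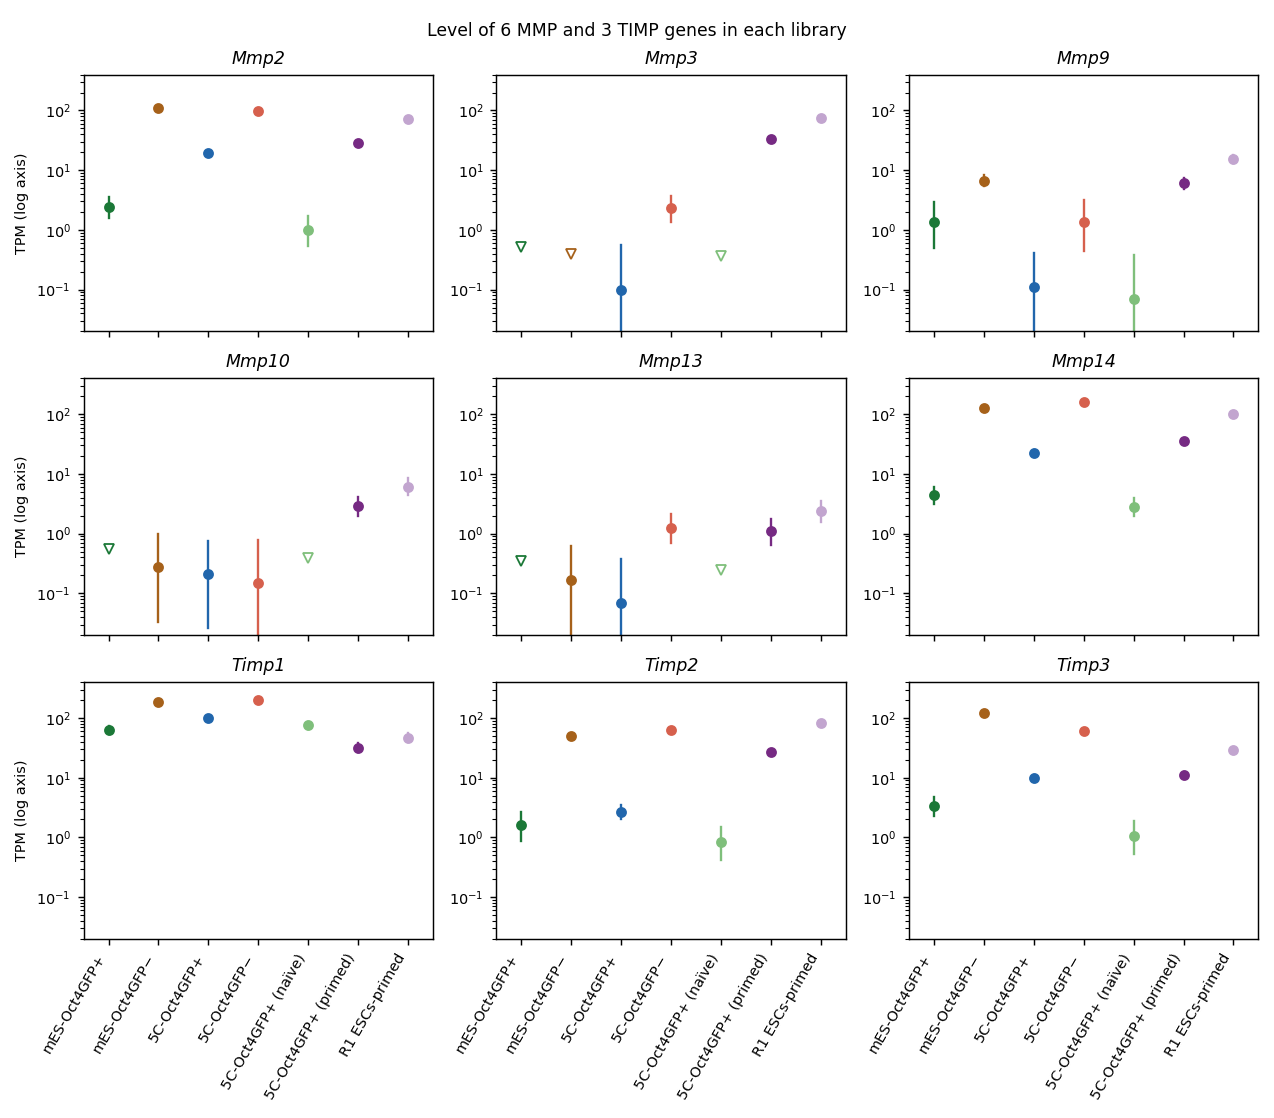
TPM of each of the 9 genes (log axis) in the 7 libraries, 1 point per library, with 95% Poisson intervals of the reads as vertical lines, cut at the lower axis limit. Open triangles mark libraries without reads, drawn at the TPM of 3 counts. *Mmp2* and *Mmp14* share a pattern, *Mmp3* and *Mmp10* stand out in the primed libraries and *Timp1* is the most even gene.

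The balance between protease and inhibitor RNA differed among libraries. Summed over the 6 MMPs and over the 3 TIMPs, it was 8.18 against 67.75 TPM in Oct4GFP+ and 247.28 against 356.23 TPM in Oct4GFP- cells of mES medium. In 5C medium it was 41.98 against 110.93 TPM and 265.87 against 318.93 TPM. The sums were 3.92 against 77.15 TPM in naïve cells, 106.71 against 69.63 in primed cells and 270.90 against 157.98 in R1 ESCs-primed. Of these sums, that of the 6 MMPs exceeded that of the 3 TIMPs only in the 2 primed libraries. This balance holds for the chosen genes only, since other MMPs and *Timp4* were left out. In 5C-Oct4GFP+ and 5C-Oct4GFP- cells *Mmp11* was at 42.94 and 37.31 TPM and *Mmp25* at 12.05 and 5.18 TPM. *Mmp23* was at 8.11 and 4.88 TPM, *Mmp17* at 7.05 and 5.68 TPM and *Mmp15* at 2.54 and 13.97 TPM. *Timp4* was at 0.13 and 2.44 TPM there. With these genes added, the MMP sum was slightly above the TIMP sum in both 5C libraries. The order there thus depends on the genes chosen, and this margin was not set against counting error.

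The MMP to TIMP ratio of these sums was 1.53 (95% interval 1.39 to 1.68) in primed cells and 1.71 (1.60 to 1.84) in R1 ESCs-primed. It was 0.834 (0.784 to 0.886) in 5C-Oct4GFP- and 0.694 (0.656 to 0.735) in mES-Oct4GFP- cells. In 5C-Oct4GFP+ cells it was 0.378 (0.338 to 0.424), above 0.121 (0.0906 to 0.161) in mES-Oct4GFP+ and 0.0508 (0.0375 to 0.0688) in naïve cells. These intervals are approximate and cover reads, not cultures. Each ratio compares sums within 1 library, so it does not depend on scaling between libraries.

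Of the summed RNA of the 3 TIMPs, *Timp1* gave 92.7% in Oct4GFP+ cells of mES medium and 88.8% in those of 5C medium. It gave 97.5% in naïve cells. The share in the respective Oct4GFP- cells was 51.7% and 61.8%. In primed cells it was 46.1% and in R1 ESCs-primed 29.9%. *Timp2* gave 38.1% in primed cells and 51.5% in R1 ESCs-primed. Among the 6 MMPs summed, *Mmp14* led in those 2 libraries with 33.4% and 37.3%. *Mmp3* followed with 30.8% and 27.5% and *Mmp2* with 26.4% and 26.5%. *Mmp25*, which is not among the 6, was at 49.08 TPM in primed cells, above *Mmp14* at 35.64 TPM. In R1 ESCs-primed it was at 43.56 TPM, below *Mmp14* at 100.93 TPM.

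The RNAs of the MMP14–TIMP2–MMP2 complex were not in one proportion. *Mmp2* was 7.22 times (5.41 to 9.8) *Timp2* in 5C-Oct4GFP+ cells, against 0.884 to 2.24 times in the 6 other libraries. *Mmp14* was 8.43 times (6.32 to 11.4) *Timp2* in 5C-Oct4GFP+ cells, against 1.24 to 3.43 times elsewhere. In 5C-Oct4GFP+ cells *Mmp2* and *Mmp14* were closer to primed than to naïve cells, while *Timp2* in TPM did not differ from mES-Oct4GFP+ cells beyond counting error.

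**Figure D2:**
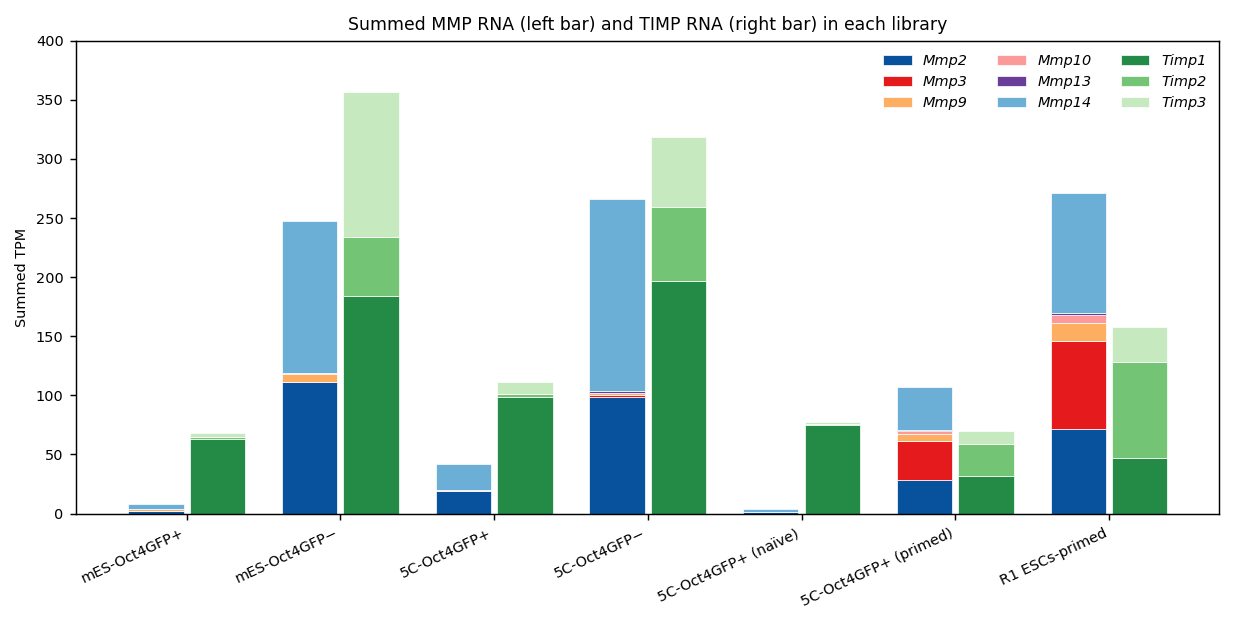
Summed TPM of the 6 MMPs (left bar) and the 3 TIMPs (right bar) in each library, stacked by gene from 0. The left bar is the taller one only in 5C-Oct4GFP+ (primed) cells (106.71 against 69.63) and R1 ESCs-primed (270.90 against 157.98).

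Oct4GFP- and Oct4GFP+ cells of the same medium were compared to see how the genes differ with activation of the reporter. In mES medium, 6 of the 9 genes had 1 TPM or more in either library, and all 6 were called higher in Oct4GFP- cells. Over all 16294 genes compared, 28.8% were called higher and 17.9% lower. The ratio was 46.0 (30.8 to 71.9) for *Mmp2*, 29.2 (21.1 to 41.6) for *Mmp14*, 31.0 (18.3 to 56.9) for *Timp2* and 36.5 (25.8 to 53.4) for *Timp3*. It was smaller for *Mmp9*, 4.93 (2.17 to 13.8), and *Timp1*, 2.93 (2.46 to 3.50). In CPM the *Mmp9* ratio was 10.5 (4.64 to 29.4) and the *Timp3* ratio 54.3 (38.3 to 79.4). The effective length of *Timp3* was 2866 bases in mES-Oct4GFP+ and 4642 bases in mES-Oct4GFP- cells. *Mmp3*, *Mmp10* and *Mmp13* had 0 to 2 reads in these libraries and were not compared.

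In 5C medium, 8 of the 9 genes were compared and 7 were called higher in Oct4GFP- cells, where 22.6% of all 15675 genes were called higher and 8.45% lower. The ratio was 5.14 (4.54 to 5.82) for *Mmp2*, 7.27 (6.45 to 8.22) for *Mmp14*, 23.4 (17.9 to 31.3) for *Timp2* and 6.08 (5.31 to 6.98) for *Timp3*. *Mmp3* (23.0, 3.56 to 950), *Mmp13* (18.0, 2.85 to 792) and *Mmp9* (12.2, 1.94 to 124) rest on 17, 14 and 5 reads in Oct4GFP- and 1, 1 and 2 reads in Oct4GFP+ cells. In CPM the *Mmp9* ratio was 3.13 (0.512 to 32.8), which does not exclude equality. *Timp1*, at 2.0 (1.77 to 2.26), lay just under the threshold on the log2(TPM + 1) scale.

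The median difference on log2(TPM + 1) over all 9 genes, those below 1 TPM included, was 1.7 in mES and 1.58 in 5C medium. Over the genes with 1 TPM or more it was 4.43 for the 6 in mES and 1.94 for the 8 in 5C medium, and over all genes compared 0.15 and 0.25. Rescaling the libraries by median ratios moved the median of all genes by -0.146 in mES and -0.213 in 5C medium.

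Fibroblast markers differed in the same direction. Of 12 markers, such as *Col1a1*, *Col3a1* and *Postn*, all 12 were called higher in the Oct4GFP- cells of mES medium, where 28.8% of all genes were. In those of 5C medium 10 were, where 22.6% of all genes were, each against Oct4GFP+ cells. The summed level of the 12 markers in Oct4GFP- and Oct4GFP+ cells was 637.26 and 16.93 TPM in the mES pair. In the 5C pair it was 330.59 and 12.48 TPM. *Twist2* was listed at 0 in mES-Oct4GFP+ and naïve cells. The part of fibroblasts left in the Oct4GFP- gate in the values above was not tested. Sums of 6 osteochondral markers were also higher in Oct4GFP- cells, 37.49 against 3.04 TPM in the mES pair and 47.95 against 6.77 TPM in the 5C pair. So were those of 6 extraembryonic endoderm markers, 90.72 against 5.59 TPM and 13.88 against 2.26 TPM. Keratinocyte markers summed to 318.85 against 82.95 TPM in the mES pair and 220.45 against 117.7 TPM in the 5C pair, with *Krt14* at 75.35 against 0 TPM and 44.83 against 2.82 TPM. Epithelial markers summed to 1758.64 against 519.23 TPM and endothelial markers to 38.92 against 12.3 TPM in the mES pair, while in the 5C pair both were lower in Oct4GFP- cells, at 740.31 against 896.67 TPM and 45.16 against 52.65 TPM. Neutrophils are rich in MMP9. Of their 6 markers, *S100a8* and *Elane* were listed at 0 in all 7 libraries, and *S100a9* and *Mpo* were below 1 TPM. *Ltf* was called higher in mES-Oct4GFP- cells, at 7.64 TPM against 0 in mES-Oct4GFP+ cells, as *Mmp9* was, and was between 0 and 1.49 TPM elsewhere. *Cxcr2* was at 4.96 to 18.49 TPM in every library, and the sum of the list was 6.98 to 19.2 TPM. The macrophage marker *Adgre1* was at 0 to 0.14 TPM, and *Csf1r* was highest in mES-Oct4GFP- cells at 5.33 TPM. The sum of 6 macrophage markers was 28.34 and 58.37 TPM in Oct4GFP+ and Oct4GFP- cells of mES medium and 12.55 to 44.68 TPM elsewhere. The part of these cells in the values above was not tested.

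The medium was compared within each sort gate, which uses each sorted library again. In Oct4GFP- cells, 8 genes were compared, 1 was called higher in 5C medium and 2 lower, against 9.69% and 10.1% of all 15859 genes. *Mmp3* was higher, at least 5.83-fold against a floor of 3 counts. *Timp3* was lower, with a ratio of 0.488 (0.455 to 0.524), and so was *Mmp9*, with 0.202 (0.0637 to 0.486) in TPM and 0.0581 (0.0184 to 0.141) in CPM. *Mmp2* (0.880, 0.815 to 0.95), *Mmp14* (1.26, 1.18 to 1.36), *Timp1* (1.07, 0.959 to 1.2) and *Timp2* (1.25, 1.13 to 1.38) were within 1.5-fold. *Mmp13*, with 14 and 2 reads, had a ratio of 7.41 (1.66 to 65.6) and a difference of 0.95 on log2(TPM + 1), just under the threshold, which it passed with a pseudocount of 0.1 (2.33) and in CPM (1.13). The fibroblast marker sum was 330.59 TPM in 5C-Oct4GFP- against 637.26 TPM in mES-Oct4GFP- cells, with 7 of 12 markers called lower and 1 higher. Of the neutrophil markers only *Ltf* was called lower, at 1.49 against 7.64 TPM. *Cxcr2* was at 4.96 against 5.38 TPM and *S100a9* at 0.53 against 0.52 TPM, and *S100a8*, *Elane* and *Mpo* were at 0 in both libraries. The part of fibroblasts and neutrophils in the *Timp3* and *Mmp9* values was not tested.

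In Oct4GFP+ cells, 6 genes were compared, 3 were called higher in 5C medium and 1 lower, against 13.7% and 13.5% of all 15196 genes. *Mmp2* was 7.88 times (5.20 to 12.5) and *Mmp14* 5.08 times (3.61 to 7.34) as high in 5C-Oct4GFP+ as in mES-Oct4GFP+ cells. *Timp3* was 2.93 times (2.02 to 4.37) as high in TPM and 4.76 times (3.28 to 7.09) in CPM. *Timp1* was 1.57 times (1.31 to 1.89) as high, and *Timp2*, at 1.65 (0.902 to 3.20), did not exclude equality in TPM, while in CPM it was 2.30 (1.26 to 4.47). *Mmp9* was lower at 0.0815 (0.00825 to 0.467), from 6 and 2 reads, and at 0.195 (0.0192 to 1.09) in CPM.

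The summed fibroblast markers did not follow *Mmp2* and *Mmp14* here. Their sum was 12.48 TPM in 5C-Oct4GFP+ against 16.93 TPM in mES-Oct4GFP+ cells, and of 7 markers compared 1 (*Thy1*) was called higher and 2 lower. *Col1a1* was at 1.5 against 4.05 TPM and *Postn* at 0.07 against 0.36 TPM. The sums of the other marker lists were higher in 5C-Oct4GFP+ cells, except that of extraembryonic endoderm (2.26 against 5.59 TPM). All 3 endothelial markers compared were called higher, with sums of 52.65 and 12.3 TPM, and so were 4 of 6 epithelial markers, with sums of 896.67 and 519.23 TPM. The part of other cell types in the MMP values was not tested.

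**Figure D3:**
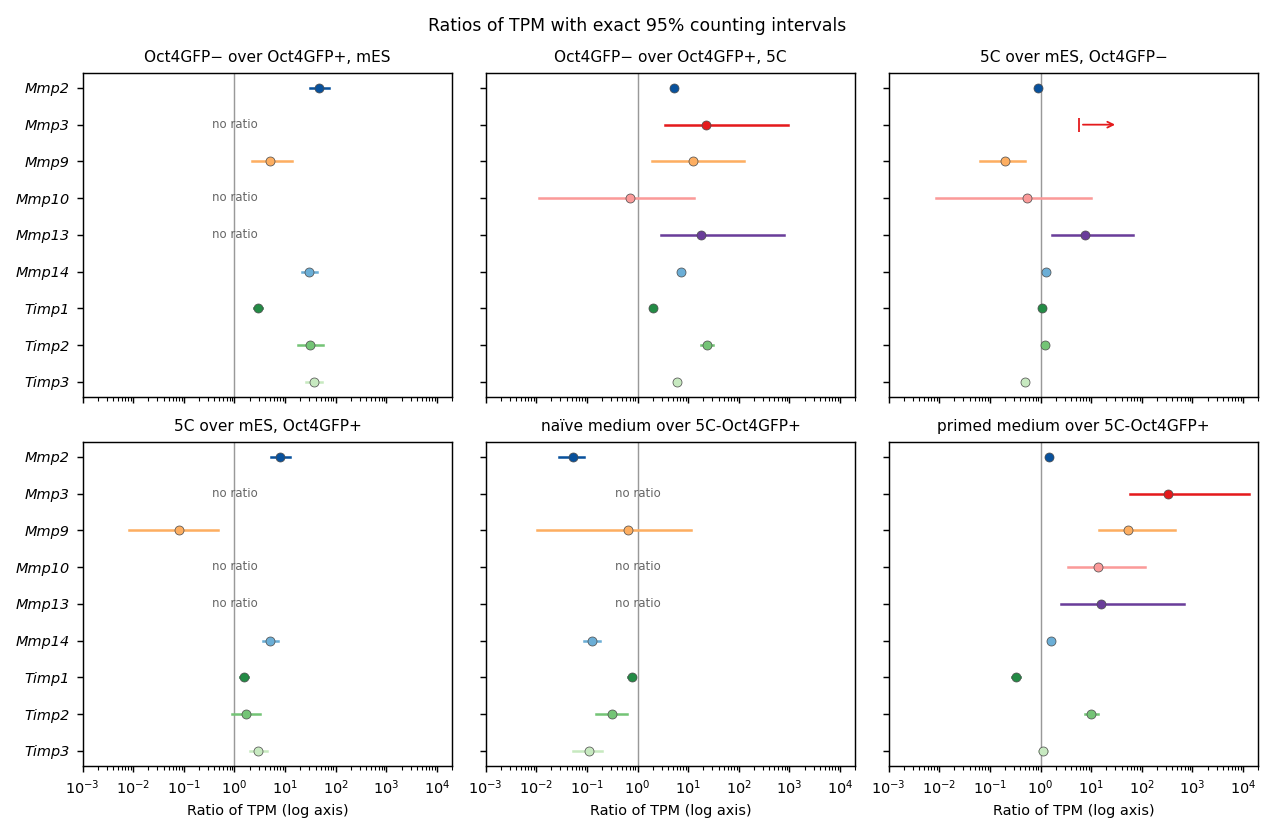
Ratio of TPM (log axis) for each of the 9 genes in 6 comparisons, with points for the ratio and lines for the exact 95% counting interval. An arrow marks a lower bound against 3 counts, and no ratio is drawn where both libraries are at or under 3 counts and at least 1 of them has no reads. *Mmp2* and *Mmp14* lie right of 1 for the comparison of 5C with mES medium in Oct4GFP+ cells and near 1 in Oct4GFP- cells.

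**Figure D4:**
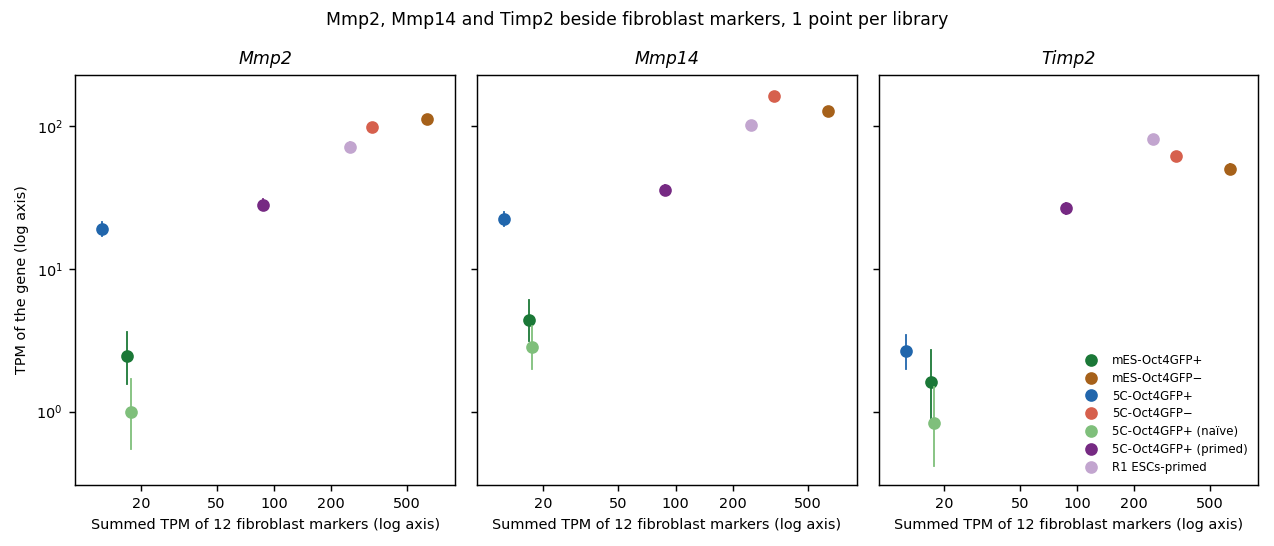
TPM of *Mmp2*, *Mmp14* and *Timp2* (log axis) against the summed TPM of 12 fibroblast markers (log axis), 1 point per library with 95% Poisson intervals. 5C-Oct4GFP+ cells have the lowest marker sum (12.48 TPM) but more *Mmp2* and *Mmp14* than mES-Oct4GFP+ and naïve cells.

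Conversion of 5C-Oct4GFP+ cells was compared with the starting cells, a library shared by both comparisons. Conversion in naïve medium went with lower values. Of 5 genes compared, 3 were called lower and 0 higher, against 17.5% and 10.0% of all 14863 genes. 5C-Oct4GFP+ cells had 19.1 times (11.2 to 35.4) the *Mmp2*, 7.84 times (5.49 to 11.5) the *Mmp14* and 9.17 times (5.06 to 18.7) the *Timp3* TPM of naïve cells. In CPM the naïve to 5C-Oct4GFP+ ratio of *Timp3* was 0.0537 (0.0265 to 0.0976). *Timp2* lay just short of the threshold at 0.313 (0.149 to 0.608), and *Timp1* was 0.764 (0.655 to 0.890) of the starting level. *Mmp3*, *Mmp9*, *Mmp10* and *Mmp13* were below 1 TPM in both libraries. The fibroblast marker sum was 17.6 TPM in naïve cells against 12.48 TPM. The endothelial sum, mostly *Tek* and *Vwf*, was 10.39 against 52.65 TPM, and the epithelial sum 524.02 against 896.67 TPM. The part of such cell types was not tested.

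In primed medium all 9 genes were compared, 4 were called higher and 1 lower, against 13.7% and 16.1% of all 15067 genes. *Mmp3* was 329 times (57.8 to 12800) as high, *Mmp9* 54.4 times (14.3 to 443), *Mmp10* 13.8 times (3.45 to 118) and *Timp2* 10.0 times (7.59 to 13.4). *Mmp3*, *Mmp9* and *Mmp10* had 1, 2 and 2 reads in 5C-Oct4GFP+ cells, which makes these intervals wide. *Timp1* was the one called lower, and 5C-Oct4GFP+ cells had 3.07 times (2.55 to 3.70) its level. *Mmp2* (1.47, 1.28 to 1.70), *Mmp14* (1.59, 1.39 to 1.83) and *Timp3* (1.12, 0.946 to 1.33) were close to their starting level. *Mmp13* had 1 read before and 18 after, a ratio of 15.7 (2.58 to 681), but its difference on log2(TPM + 1) stayed under 2-fold.

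Between the converted libraries, 8 genes were called higher in primed and 1, *Timp1*, lower, against 22.2% and 16.7% of all 15249 genes. The ratio was 28.2 (16.7 to 52.0) for *Mmp2*, 12.5 (8.84 to 18.2) for *Mmp14*, 85.4 (15.4 to 3500) for *Mmp9*, 32.0 (17.6 to 64.0) for *Timp2* and 10.3 (5.69 to 20.9) for *Timp3*. In CPM the *Timp3* ratio was 19.5 (10.8 to 39.5). *Mmp3*, *Mmp10* and *Mmp13*, without reads in naïve cells, were at least 89.3-fold, 7.52-fold and 4.51-fold higher. The median difference of the 9 genes was 2.71 on log2(TPM + 1), against 0.14 over all genes compared.

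Cell type markers also differed with primed medium, in both directions. The fibroblast marker sum was 87.54 TPM in primed, 17.6 in naïve and 12.48 in 5C-Oct4GFP+ cells, with all 12 markers at 1 TPM or more in primed cells. Of 6 markers of extraembryonic endoderm, 4 were called higher in primed than in 5C-Oct4GFP+ cells, and their sum was 176.88 against 2.26 TPM. *Foxa2*, *Gata4*, *Gata6* and *Sox17*, the 4 called higher, are also genes of embryonic endoderm. All 3 endothelial markers compared, *Kdr*, *Tek* and *Vwf*, were called lower in primed than in 5C-Oct4GFP+ cells, with list sums of 4.08 and 52.65 TPM. Of 3 keratinocyte markers compared 2 were lower, *Krt14* at 0 against 2.82 TPM and *Krt6a* at 0.48 against 2.12 TPM. The keratinocyte sums of 63.79 and 117.7 TPM were mostly *Sfn* (62.25 and 111.48 TPM), which was not called. Of 6 epithelial markers 3 were called higher, with sums of 1915.7 and 896.67 TPM. The 2 osteochondral markers compared, *Col2a1* and *Sox9*, were also called higher, with list sums of 42.7 and 6.77 TPM. Their part in the primed values was not tested.

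Primed cells from 5C-Oct4GFP+ had less RNA of all 9 genes than R1 ESCs-primed. 6 of the 9 were called lower and 0 higher, against 5.11% and 2.30% of all 14600 genes. The ratio was 0.392 for *Mmp2*, 0.442 for *Mmp3*, 0.393 for *Mmp9*, 0.353 for *Mmp14*, 0.326 for *Timp2* and 0.374 for *Timp3*. *Mmp10* (0.476, 0.282 to 0.777), *Mmp13* (0.458, 0.235 to 0.881) and *Timp1* (0.680, 0.539 to 0.860) were also below 1 but not called.

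Fibroblast markers followed the same direction, with a sum of 87.54 TPM in primed cells and 251.11 TPM in R1 ESCs-primed and 10 of 12 markers called lower. R1 ESCs-primed had been induced on MEF feeder cells and, as the paper describes, were then maintained on FBS-coated plates. The part of feeder cells was not tested, and cell line, medium history and feeder cells cannot be told apart here. The *Mmp2* to *Timp2* ratio was near 1 in both libraries (1.06, 0.944 to 1.2, and 0.884, 0.807 to 0.968).

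The other members of the family were read from lists of the remaining genes. Of 11 other secreted MMPs, *Mmp7*, *Mmp8* and *Mmp27* were listed at 0 in all 7 libraries, and *Mmp1a*, a mouse collagenase, was at 0.33 TPM in primed cells, 1.87 in R1 ESCs-primed and 0 elsewhere. *Mmp11* (stromelysin 3) was the most even, between 16.41 and 42.94 TPM. *Mmp28* (epilysin) was at 19.69 TPM in mES-Oct4GFP- cells, 48.0 times (16.2 to 233) the mES-Oct4GFP+ level, and at 3.49 TPM in 5C-Oct4GFP- cells. *Mmp12*, the macrophage elastase, was at 7.57 TPM in naïve, 4.54 in primed cells and 16.87 in R1 ESCs-primed.

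Among 6 other membrane MMPs, *Mmp25*, which is anchored by a lipid, was at 0.17 TPM in Oct4GFP+ and 1.65 TPM in Oct4GFP- cells of mES medium, and at 12.05 and 5.18 TPM in those of 5C medium. Naïve cells held 0.26 TPM, primed cells 49.08 TPM and R1 ESCs-primed 43.56 TPM. Unlike *Mmp14* it was lower in 5C-Oct4GFP- than in 5C-Oct4GFP+ cells, with a ratio of 0.430 (0.326 to 0.562). It was 70.9 times (18.1 to 550) as high in 5C-Oct4GFP+ as in mES-Oct4GFP+ cells. Naïve cells held 0.0216 times (0.00575 to 0.0553) and primed cells 4.07 times (3.52 to 4.72) the 5C-Oct4GFP+ level. *Mmp15* was between 2.43 and 14.17 TPM.

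Of the other MMP inhibitors, *Timp4* was at 13.61 TPM in primed cells and 12.97 in R1 ESCs-primed, and between 0 and 2.44 TPM elsewhere. *Reck*, a membrane-anchored inhibitor, was at 1.33 TPM in 5C-Oct4GFP+ and 1.36 TPM in naïve cells and between 4.03 and 8.11 TPM in the 5 other libraries. *A2m*, which traps many proteases, was at 10.52 TPM in 5C-Oct4GFP+ and 0.03 TPM in primed cells.

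**Figure D5:**
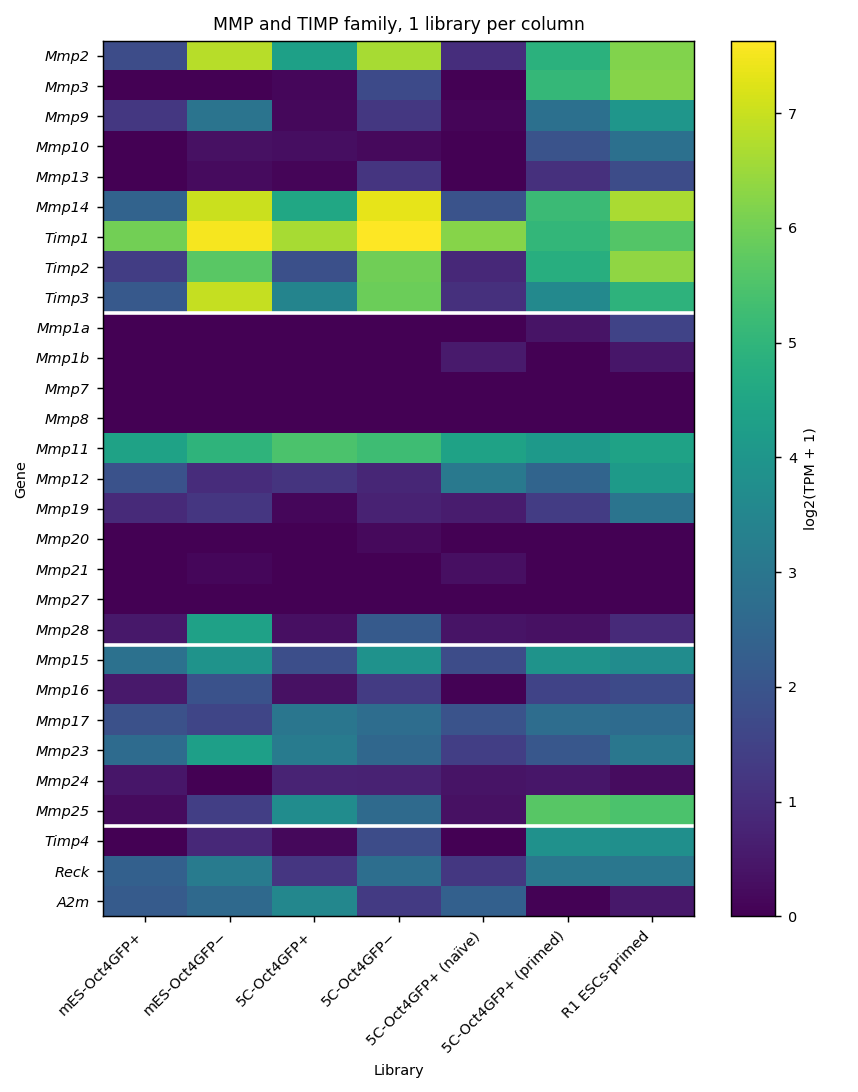
log2(TPM + 1) of the 9 genes, the other secreted MMPs, the other membrane MMPs and the other inhibitors (rows, in 4 blocks divided by white lines) in the 7 libraries (columns). *Mmp25* and *Timp4* share the primed libraries with *Mmp3*, while *Timp1* and *Mmp11* are present throughout.

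The AP-1 family and the ETS and RUNX2 factors, which act on MMP promoters in many cells, were counted too. Of 12 listed, 10 were called higher in Oct4GFP- than in Oct4GFP+ cells with mES medium and 8 with 5C medium, where 28.8% and 22.6% of all genes were, and none was called lower. In 5C-Oct4GFP+ against mES-Oct4GFP+ cells, 9 of 11 compared were called higher, against 13.7% of all genes, and none lower. In naïve against 5C-Oct4GFP+ cells, 9 of 11 were called lower, against 17.5% of all genes, and none higher. In primed against 5C-Oct4GFP+ cells 3 were called higher and 5 lower, against 13.7% and 16.1% of all genes.

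*Fos* was at 1.33 TPM in Oct4GFP+ and 815.25 TPM in Oct4GFP- cells of mES medium, at 227.84 and 820.89 TPM in those of 5C medium, and at 1.87, 9.05 and 6.37 TPM in naïve cells, primed cells and R1 ESCs-primed. *Jun* was at 3.08, 294.10, 108.01, 337.11, 2.51, 29.60 and 25.34 TPM in that order. *Fosl1*, another AP-1 subunit, was at 0.18, 18.45, 1.61, 5.59, 0.13, 6.13 and 10.98 TPM in the same order.

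Urokinase lies upstream of proMMP activation, since it makes plasmin. *Plau*, its gene, was at 0.13, 4.29, 1.47, 7.95, 0.28, 8.33 and 30.69 TPM in the order given for *Fos*. It was lowest in mES-Oct4GFP+ and naïve cells and highest in R1 ESCs-primed.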

How the data were processed

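Total RNA was made into TruSeq RNA v2 libraries, which keep no strand, and sequenced on an Illumina MiSeq. The authors aligned the reads with Bowtie and estimated expression with RSEM (versions not given in the sources used here) on mm10. Expected counts, deposited by the authors, are the reads that RSEM assigned to each Ensembl gene and are not normalized. The deposited TPM values are the authors' counts per effective length scaled to an equal sum, and the deposited FPKM values are scaled to mapped fragments.

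TPM was the main value. Intervals came from expected counts rounded to whole numbers: Poisson for a level and exact Clopper-Pearson for a ratio, at 95%. Sums of TPM used a normal approximation on the log scale. Genes at 0 were set against 3 counts. With 1 library in each group no test was made. The genes and lists were chosen with earlier results of these data known. Named were all 9 genes, the 3 closest profiles of each, and, from each list, genes with the largest differences and *Mmp1a*, *Reck*, *Plau* and *Fosl1*. Some listed items are not reported here. *Mmp7*, *Mmp8*, *Mmp27* and single cell type markers were named after their values were seen.

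Alternatives were a pseudocount of 0.1, a minimum of 5 TPM, no filter, median-ratio rescaling and FPKM. CPM was added after seeing the data. Scripts were tested on simulated data. Intervals were computed with scipy 1.17.1, tables with pandas 2.3.3 and numpy 2.4.6 under Python 3.11.15, and figures were drawn with matplotlib 3.10.9. Symbols and coordinates came from GENCODE M21 on GRCm38, and promoters from RefSeq on GRCm38.p6.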

Additional observations from a re-analysis of the deposited data

Results flagged for a closer look

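*Mmp2* and *Timp3* had opposite directions between media in the 2 sort gates, under every scaling tried. In Oct4GFP- cells the 5C to mES ratio was 0.880 for *Mmp2*, a small difference that was not called, and 0.488 for *Timp3*. In Oct4GFP+ cells it was 7.88 for *Mmp2* and 2.93 for *Timp3*. With 1 library for each condition the difference between the gates was not tested.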

How the results depend on the processing

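No paired analysis was possible because each condition has 1 library, and for the same reason no replicate could be left out. Of 96 counts of called genes under an alternative, 91 stayed within 1.5 times of the value reported. The balance of calls over all genes turned where it was near even: 5C-Oct4GFP+ against mES-Oct4GFP+ cells had 2084 higher and 2057 lower, but 2508 and 2604 with the pseudocount of 0.1. 5C-Oct4GFP- against mES-Oct4GFP- cells had 1536 higher and 1598 lower, but 1169 and 1145 in FPKM and 1533 and 1403 in CPM. Of the 9 genes, 1 was higher and 2 lower there, but 2 and 2 with the pseudocount of 0.1 and in CPM, 1 and 1 in FPKM, and 0 and 2 when genes had to reach 5 TPM. When genes had to reach 5 TPM in either library, 4 of the 9 genes were called in Oct4GFP- against Oct4GFP+ cells of 5C medium, in place of 7, and 2739 of all genes, in place of 4141, were called between 5C-Oct4GFP+ and mES-Oct4GFP+ cells. Between primed cells and R1 ESCs-primed, 1082 genes were called, against 1847 with a pseudocount of 0.1, 534 when genes had to reach 5 TPM and 625 in FPKM. For single genes, 43 of 288 differences moved beyond their counting interval, 29 of them with the pseudocount of 0.1 and 9 with CPM, and none reversed. Median-ratio rescaling moved the median of all genes by 0.113 for naïve against 5C-Oct4GFP+ and by -0.17 for primed against naïve cells. FPKM moved it by -0.123 and CPM by -0.107 for the Oct4GFP- against Oct4GFP+ cells of mES medium. Depth limits *Mmp3*, *Mmp10* and *Mmp13* outside the primed libraries and *Mmp9* in most libraries.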

Other observations

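Proteases of the ADAM and ADAMTS families and binding partners of MMPs were also read. Of 14 ADAM and ADAMTS genes compared, 11 were called higher in mES-Oct4GFP- than in mES-Oct4GFP+ cells and 1, *Adam19*, lower, against 28.8% and 17.9% of all genes. In the 5C pair 7 of 14 were called higher and none lower, against 22.6% and 8.45% of all genes. *Adam19* was highest in mES-Oct4GFP+ (87.54 TPM) and naïve cells (81.06 TPM), at 11.35 TPM in mES-Oct4GFP- cells and between 30.87 and 41.59 TPM in the other 4 libraries. *Adamts9* was at 45.29 TPM in primed cells and 42.79 TPM in R1 ESCs-primed, and between 2.96 and 15.77 TPM elsewhere.

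Of 8 binding and clearance partners, 7 were called higher in mES-Oct4GFP- than in mES-Oct4GFP+ cells and none lower, against 28.8% and 17.9% of all genes. In the 5C pair 6 were called higher and none lower, against 22.6% and 8.45% of all genes. *Cd44*, a receptor that holds MMP9 and MMP14 at the cell surface, was at 0.36 TPM in Oct4GFP+ and 313.69 TPM in Oct4GFP- cells of mES medium, at 3.05 and 66.95 TPM in those of 5C medium, at 0.38 TPM in naïve and 12.50 TPM in primed cells, and at 17.56 TPM in R1 ESCs-primed. *Lcn2*, which binds MMP9, was at 34.61 TPM in 5C-Oct4GFP- cells and between 0 and 1.87 TPM elsewhere.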
